A study of Mus musculus with 2 samples.

Results

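The 3D-Gene miRNA oligo chip carried 202 probes for mouse miRNAs whose names end in -5p and whose number runs from that of miR-6896 to that of miR-7094, out of 1900 mature miRNAs with a probe (10.6%). They were taken by a rule on name and number that uses no measured value. The block itself was chosen with earlier results of these data known. The 202 members cover 199 numbers, and 6 of them carry a letter or a copy number, such as miR-7036a-5p and miR-7036b-5p. The 201 probes for the 3p arms of the same numbers were used only for comparison. RNA came from extracellular vesicles (EVs) in the plasma of C57BL/6 and BALB/c mice aged 8 weeks. Their left femoral artery and vein had been tied at 2 points and cut between them, with blood drawn 24 h later. In this hindlimb ischemia model the C57BL/6 mice recover blood flow and the BALB/c mice do not, and both groups had the ligation, so that neither is an unoperated control. The plasma EVs of 5 mice were pooled for each strain and hybridised to 1 chip, so there are no replicates, and neither an SD nor a test of the strains can be given. According to the study's methods the EVs and their RNA were prepared with exosome kits, whereas the sample labels speak of RNA extracted from cells with another kit.

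A mirtron is a short intron that folds into a hairpin once the spliceosome has cut it out, so that Dicer can process it without the Drosha step that other miRNA precursors need. The end of the hairpin is then the end of the intron, whose last bases are AG. The 2 strands of the hairpin give the 5p and the 3p miRNA. In mammalian mirtrons the 5p strand is typically rich in G and the 3p strand rich in C and U, since the 3p strand holds the pyrimidine tract in front of the 3′ splice site. The host gene and the mirtron are thus transcribed together.

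Mature sequences were found in RefSeq's GRCm38.p6 table for 178 of the 202 members. The sequences below are those of the members that lead the results, in the order in which they are described, with the seed (bases 2 to 8, which pair with target mRNAs) in capitals. The first 8 were detected in both strains with the brightest C57BL/6 spots among the members that have a sequence in the table and a ratio above 1, the next 2 are the brightest detected only in C57BL/6, and the last 5 are those on the BALB/c side.
miR-7036a-5p: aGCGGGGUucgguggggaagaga
miR-6968-5p: aGGGGGCGagggggcccugugg
miR-7053-5p: uGGGGAAAggcaggcuacugg
miR-6908-5p: uUGCCUGUcagggagagcccca
miR-7045-5p: aGCGGGUGggggagggggacu
miR-6944-5p: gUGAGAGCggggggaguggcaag
miR-7081-5p: aGAGGAGGgugcucggccggggauua
miR-7005-5p: cCUGGGGAugggaggaccagca
miR-6989-5p: uUGGGGACagaggcacaggaug
miR-6937-5p: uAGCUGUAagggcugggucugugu
miR-6916-5p: cAGGAGGAuggagaugaguca
miR-6912-5p: uACAGGGAgggugcucaggcag
miR-6913-5p: uGGGAGACcagucagguguugg
miR-7008-5p: uGUGGGAGaugccaggagccguac
miR-6924-5p: aGAGGAUGgggauuuggcgaagu

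G made up a median of 43.5% of the bases of the members, against 14.3% of the 3p arms and 26.3% of all miRNAs on the chip with a sequence. C made up 13.6% of the 5p and 40.9% of the 3p arms. A run of 4 G (GGGG) stood in 67 of the 178 members (37.6%) and in 11.2% of all miRNAs, and a run of 3 G (GGG, which every GGGG also contains) in 75.8% and 30.3%. These runs were searched on the mature strand only, since a mature miRNA has no second strand. Whether the members look like mirtrons was checked on their hairpins. Of the 173 hairpins that RefSeq lists for them, 160 (92.5%) end in AG, against 66 of 755 hairpins outside the block (8.74%), while 26 begin with GU, the start of most introns. The hairpins were 52 to 137 bases long with a median of 66, against a median of 83 bases outside the block. The 5p miRNA began at base 6 of the hairpin in 135 members and at base 1 in 23, so that most listed hairpins begin before the mature strand. By RefSeq's gene bounds, 171 of the 178 loci (96.1%) lie inside a protein-coding gene, against 62.9% of all miRNAs. In 151 of them the gene is on the same strand, in none only on the opposite strand, and for 20 the strand was not given in the table used. Exon and intron borders were not analysed here, and members whose hairpin lacks the final AG were kept.

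The hairpins of 4 members show these features, with the 5p miRNA and the last AG in capitals. They are those of the brightest member, of miR-6968-5p and miR-6937-5p, whose 5p strands begin at the first base, and of miR-6908-5p, the bright member with the fewest G.
miR-7036a: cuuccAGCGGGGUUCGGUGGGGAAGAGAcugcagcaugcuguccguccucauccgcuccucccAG
miR-6968: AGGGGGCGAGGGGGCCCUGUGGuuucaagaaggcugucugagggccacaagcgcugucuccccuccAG
miR-6937: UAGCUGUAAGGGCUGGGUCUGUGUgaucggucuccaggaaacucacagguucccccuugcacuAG
miR-6908: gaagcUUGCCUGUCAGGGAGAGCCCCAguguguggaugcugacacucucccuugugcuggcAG

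The miR-7036a hairpin lies at chr5:137296624-137296688 on the minus strand (GRCm38.p6), within Srrt, which encodes an RNA-binding cofactor of miRNA processing. miR-6968 lies at chr17:26935472-26935539 on the plus strand within Phf1, a gene for a Polycomb-associated protein. miR-6937 lies at chr12:28679325-28679389 on the plus strand, with no gene of known strand around it in the tables used. miR-6908 lies at chr10:78445095-78445157 on the minus strand within Pdxk, the gene of pyridoxal kinase. The host mRNAs themselves were not measured.

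On these arrays the intensity of a spot is Cy5 fluorescence in arbitrary units. Empty (BLANK) spots, without the extreme 5% at each end, averaged 98.3 with an SD of 3.62 for C57BL/6 and 102 with an SD of 4.02 for BALB/c. Detection required an intensity over this mean by more than 2 SD, which put the limits at 106 and 111. Of the 174 spots without a probe, 9 and 8 passed these thresholds, while none of the 32 negative-control spots did. Probes bind their targets with different strength, so intensities of different probes are not amounts of RNA that can be set against each other.

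In the C57BL/6 EVs, 105 of the 202 members were detected (52.0%), against 33.6% of all 1900 miRNAs. In the BALB/c EVs 28 were detected (13.9%), against 9.84% of all miRNAs. Both strains shared 27 members (13.4%, against 9.37%), and 78 were detected only in C57BL/6 (38.6%, against 24.2%). A lone member, miR-6924-5p, was detected only in BALB/c (0.495%, against 0.474%), and 96 were detected in neither strain. Other 5p arms on the chip were detected at 29.0% in C57BL/6 and 12.4% in BALB/c. Of the 3p arms of the block, 39.3% were detected only in C57BL/6, near the share of the members.

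The gap between the strains moved with the overall brightness of the arrays. The C57BL/6 signals of the miRNAs detected on both arrays were 5.32 times the BALB/c ones at their 75th percentile, and only 1.80 times at the spike controls. With the C57BL/6 signals divided by 5.32 and called at the BALB/c threshold, 43 members (21.3%) stayed detected in C57BL/6, beside the 28 in BALB/c. On the same footing 10.2% of the miRNAs outside the block stayed detected, and 10.4% of all miRNAs. How much of the difference comes from the amount of RNA on each chip was not tested.

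**Figure D1:**
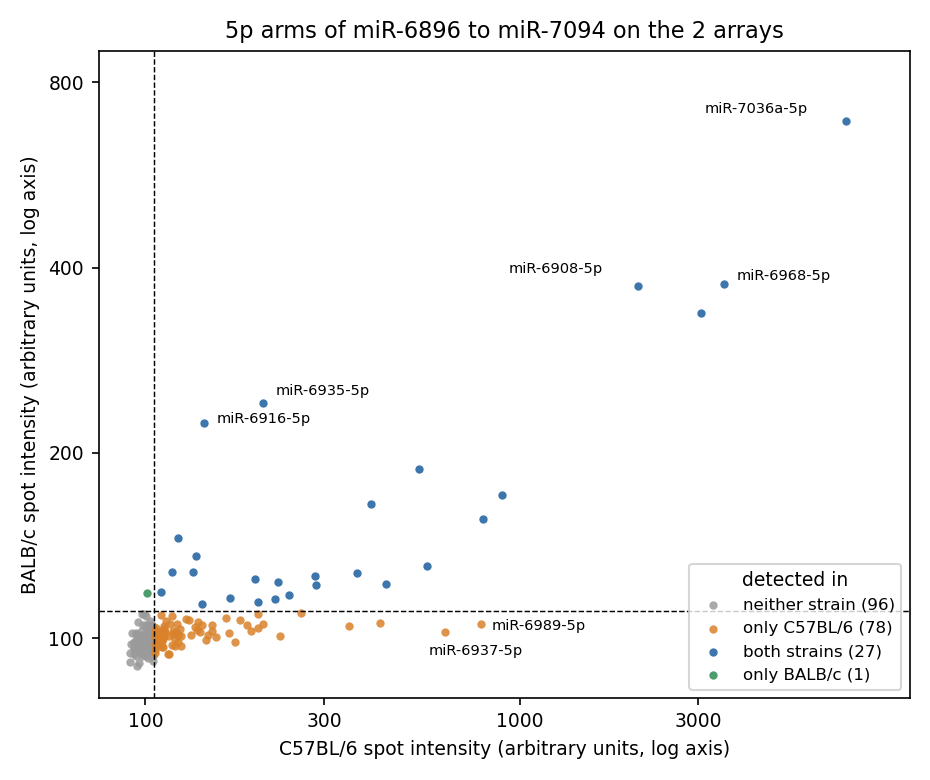
Spot intensity of the 202 members on the C57BL/6 array (horizontal, log axis) and the BALB/c array (vertical, log axis), in arbitrary units before background subtraction; dashed lines are the detection thresholds and colours give the strains in which a member was detected. The 78 orange members lie along the floor of the BALB/c array up to a C57BL/6 intensity of 789, and miR-7036a-5p is highest on both arrays.

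Most detected members were dim, and a few were among the brightest spots of the chip. The 105 members detected in C57BL/6 had intensities from 106 to 7445 with a median of 125, and 18 of them lay within 3 SD of the background. Only 24 exceeded 200 and only 4 exceeded 1000. In BALB/c the 28 detected members ran from 114 to 691 with a median of 128. At a stricter limit of 10 SD above the background, 48 members (23.8%) remained in C57BL/6 and 11 (5.45%) in BALB/c, against 11.2% and 3.21% of all miRNAs. Among the 50 brightest miRNAs of each array, 12 were members in C57BL/6 and 10 in BALB/c.

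miR-7036a-5p read 7445 in C57BL/6 and 691 in BALB/c, the fourth and the sixth brightest miRNA of the respective array. miR-6968-5p read 3519.6 and 376, and miR-7053-5p, encoded within Pold1 (the catalytic subunit of DNA polymerase delta), read 3052 and 337. These 3 had the highest intensities of the members in C57BL/6. miR-6908-5p read 2066 and 374, and miR-7045-5p, within the chromatin remodeler gene Chd4, read 894 and 171. miR-6944-5p, within the gene of the actin-binding protein drebrin (Dbn1), read 798 and 156. Then came miR-7081-5p within Dnmt1, the maintenance DNA methyltransferase, with 565 and 131, and miR-7003-5p within the cell-cycle transcription factor gene Mybl2, with 538 and 188. The surroundings of bright spots were bright as well, with a local background of 5895 around miR-7036a-5p and 3093 around miR-6968-5p on the C57BL/6 array. Among detected members, 3 spots were no brighter than their own surroundings, all on the C57BL/6 array: miR-7006-5p (109.9 against 115), miR-7046-5p (109.6 against 115) and miR-7036b-5p (229 against 239).

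The 3p probes reached far lower intensities than the 5p probes. In C57BL/6, 81 of the 201 3p probes were detected (40.3%), but the brightest, miR-7028-3p, read only 165, and 3 (1.49%) exceeded 10 SD. In BALB/c 2 were detected (0.995%), miR-6916-3p at 112 and miR-7045-3p at 111, both just above the threshold. Divided by 5.32, the C57BL/6 signals of only 2 3p arms would have passed the BALB/c threshold, against 43 of the 5p arms.

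Of the 200 numbers with a probe for each arm, 48 had both arms detected in C57BL/6, 57 only the 5p arm, 33 only the 3p arm and 62 neither. In BALB/c both arms were detected in 2, only the 5p arm in 26 and only the 3p arm in none. The arms of 1 hairpin could differ widely in intensity. miR-7036a-5p read 7445 in C57BL/6 where its 3p arm read 131, and miR-7053-5p read 3052 where its 3p arm read 116. For miR-7045 the values were 894 and 155, and for miR-6944 798 and 111. As the arms are read by different probes, these values do not give the ratio of the strands in the EVs.

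**Figure D2:**
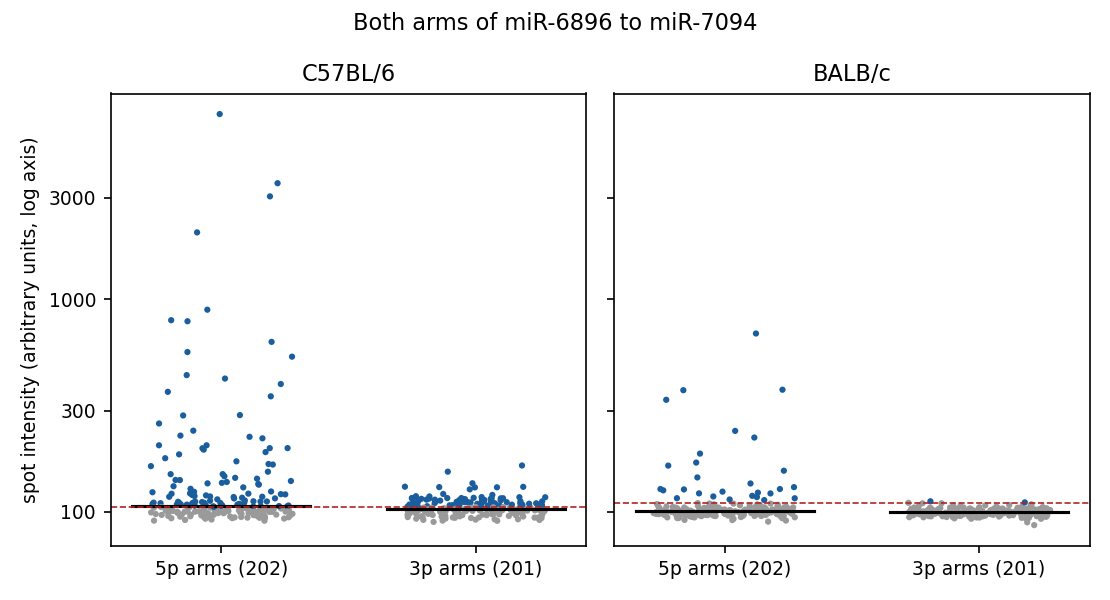
Spot intensity (log axis, arbitrary units) of the 202 5p and 201 3p arms of the block on each array; blue points exceed the detection threshold (dashed line), grey points do not, and black bars are medians over all probes of an arm. The 5p arms reach 7445 in C57BL/6 and 691 in BALB/c, whereas no 3p arm exceeds 165 and 112.

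Detection of the members moved with their G content. In C57BL/6, none of the 8 members with under 30% G was detected, 16 of 49 (32.7%) with 30 to 40%, 38 of 66 (57.6%) with 40 to 50%, 31 of 48 (64.6%) with 50 to 60% and all 7 with 60% or more. In BALB/c the same bins held 0, 1, 10, 8 and 5 detected members (0%, 2.04%, 15.2%, 16.7% and 71.4%). Across the 178 members with a sequence, Spearman's rho between the share of G and the intensity was 0.44 in C57BL/6 and 0.26 in BALB/c, across probes of the same chip that are not independent replicates. A run of GGGG was present in 48.9% of the members detected in C57BL/6 and 25.6% of those not detected there. For BALB/c the shares were 70.8% and 32.5%.

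miRNAs outside the block showed a similar order. In C57BL/6 they were detected in 23.6%, 25.2%, 56.8%, 88.7% and 88.9% of the same bins. At 40 to 50% G the C57BL/6 shares were thus 57.6% of the members and 56.8% of the others, and at 50 to 60% G they were 64.6% and 88.7%. In BALB/c the miRNAs outside the block were detected in 7.37%, 8.16%, 18.2%, 45.3% and 55.6% of the bins. These shares were above those of the members in each bin under 60% G. The differences were not tested. For the 3p arms the share of C took this place, with 3.70% detected in C57BL/6 under 30% C, 12.7% from 30 to 40%, 55.6% from 40 to 50% and 86.7% from 50 to 60%, and a rho of 0.73. Outside the block the rho between the share of G and the intensity was lower, 0.19 in C57BL/6 and 0.06 in BALB/c. For the share of C it was 0.16 and 0.07 there. Detection thus moved with base composition inside and outside the block, while the rank correlation with intensity was weaker outside it. Whether this lies with the probes or with the RNA was not tested.

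**Figure D3:**
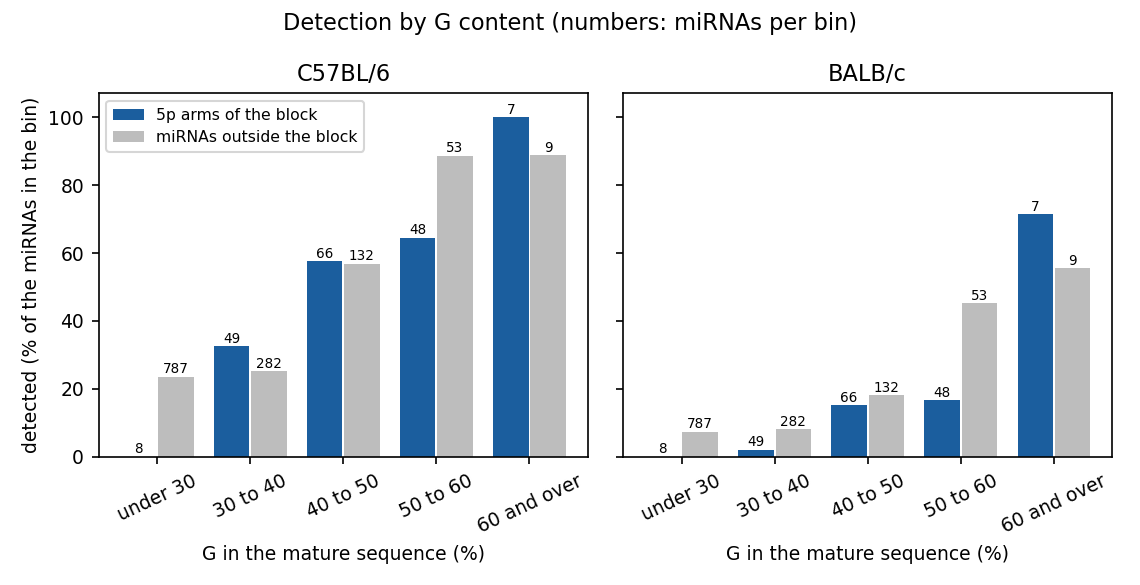
Share of miRNAs detected on each array (percent, from 0) by the G content of the mature sequence, for the 5p arms of the block (blue) and for miRNAs outside the block (grey); numbers above the bars are the miRNAs in each bin. In C57BL/6 the members go from 0 of 8 under 30% G to 7 of 7 at 60% or more.

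Ratios between the strains were formed for the 27 members detected on both arrays, after subtraction of the BLANK mean and scaling to the same 75th percentile over the 178 miRNAs detected on both. The median log2 ratio of C57BL/6 over BALB/c was 0.45, against -0.44 for all 178, and the members' median was 0.885 above that of all 178. It was higher, 0.74, for miRNAs without an arm in their name, and lower for other 5p arms (-0.79) and other 3p arms (-1.02). Single members lay between -3.84 and 1.70, with 15 above 0 and 12 below. A spot-noise range was taken by shifting the signals apart or together by 2 BLANK SDs each. It holds the noise of empty spots only and leaves out the variation of bright spots, of the scaling and between arrays. This range was wholly above 0 for 13 members, wholly below 0 for 7 and spanned 0 for 7. These directions depend on the scaling. The authors' scaling is not described, but their values match setting the median of each array's detected miRNAs to the same value. With the authors' scaling, 22 of the 27 ratios favoured C57BL/6 and 5 BALB/c, and the median for all shared miRNAs itself moved to 2.23. Where the local background of each spot was subtracted instead, 12 of 26 members favoured C57BL/6 and 14 BALB/c, and the median turned to -0.19.

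A ratio of at least 2-fold in favour of C57BL/6 was found for 19 of the 106 members detected in 1 or both strains (17.9%, against 10.2% of all 647 such miRNAs). Of these, 8 were measured ratios and 11 lower bounds. A ratio of at least 2-fold in favour of BALB/c was found for 8 (7.55%, against 11.4%), 7 of them measured. With the authors' scaling the split was 71 against 1, and with the spike controls 48 against 6. The shares of all miRNAs under these scalings are not given here. The median log2 ratio of all shared miRNAs was itself 2.23 with the authors' scaling and 1.12 with the spike controls.

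The 8 measured ratios on the C57BL/6 side ran from 2.01-fold to 3.25-fold. miR-7005-5p, within the laminin gene Lama5, read 440.2 in C57BL/6 and 122 in BALB/c, which is 3.25-fold after scaling (spot-noise range 2.26 to 5.58). miR-7081-5p was 3.10-fold (2.38 to 4.39), and miR-6944-5p was 2.44-fold (2.10 to 2.90). miR-7053-5p, miR-6968-5p and miR-7036a-5p gave nearly the same ratio, 2.37-fold, 2.35-fold and 2.35-fold, with ranges inside 2.28 to 2.46. miR-7045-5p followed with 2.19-fold (1.94 to 2.51) and miR-7048-5p with 2.01-fold (1.48 to 3.03). With the local background subtracted, the log2 ratio of miR-6968-5p was -0.20 instead of 1.23, and that of miR-7036a-5p 1.00.

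The other 12 shared members had ratios within 2-fold. miR-6908-5p was 1.36-fold towards C57BL/6 (1.32 to 1.41). The range is narrow because the noise of empty spots is small beside bright signals. With the local background subtracted, its log2 ratio was 0.35 instead of 0.45, outside that range. miR-6931-5p (399.8 in C57BL/6 and 165 in BALB/c) and miR-7003-5p had log2 ratios of -0.15 and -0.05. The spot-noise range spanned 0 for these and for miR-6979-5p, miR-6986-5p, miR-7009-5p, miR-7011-5p and miR-7016-5p. The log2 ratios of miR-7052-5p, miR-6909-5p, miR-7085-5p and miR-6910-5p were 0.55, 0.79, 0.83 and 0.84, with ranges wholly above 0.

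**Figure D4:**
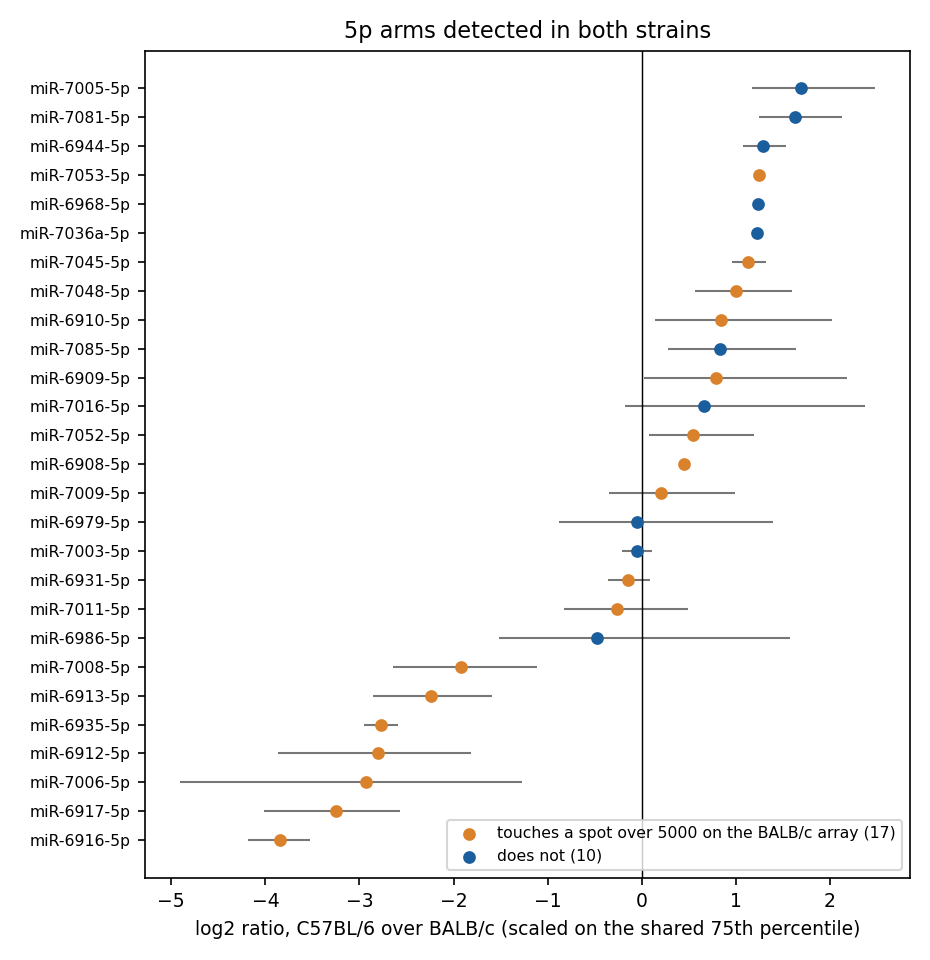
Log2 ratio of C57BL/6 over BALB/c for the 27 members detected on both arrays, scaled on the shared 75th percentile (with the authors' scaling, 22 of the 27 lie above 0); bars are the spot-noise ranges from 2 SD of the BLANK spots, and orange marks the 17 members that touch a spot over 5000 on the BALB/c array. The 7 members at or below a log2 ratio of -1 are all orange.

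Among the 78 members detected only in C57BL/6, the intensity there ran from 106 to 789 with a median of 118, while their BALB/c intensities, from 94.2 to 110.0, stayed below the threshold. miR-6989-5p, within the kinase gene Map4k2, read 789 in C57BL/6 and 106 in BALB/c, which makes it at least 16.1-fold higher in C57BL/6 on the scaled values. miR-6937-5p read 631 and 102 and was at least 12.4-fold higher. miR-7042-5p read 424 and 106 (at least 7.58-fold), miR-7047-5p 349.8 and 105 (at least 5.85-fold) and miR-6980-5p 261 and 110.0 (at least 3.78-fold). A further 6 reached a bound of 2-fold: miR-7036b-5p, miR-6987-5p, miR-7044-5p, miR-7020-5p, miR-6999-5p and miR-6914-5p, with C57BL/6 intensities from 229 down to 187. miR-6991-5p, miR-7083-5p, miR-6953-5p and miR-6988-5p, from 179 down to 164, had bounds under 2-fold. For 58 of the 78 the bound was under 1, so that detection in C57BL/6 alone does not establish a higher level after scaling. Each bound was set against the member's own BALB/c signal or the dimmest signal called detected on that array, whichever was higher, and leaves spot noise out.

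The members on the BALB/c side read at most 206 in C57BL/6 and at most 241 in BALB/c. miR-6916-5p, within Esyt1 (a membrane tether of the endoplasmic reticulum), read 143 in C57BL/6 and 224 in BALB/c, which is 14.3-fold towards BALB/c after scaling. miR-6917-5p read 122 and 145 (9.51-fold), and miR-7006-5p read 109.9 and 119 (7.61-fold, with a spot-noise range of the log2 ratio from -4.91 to -1.27). miR-6912-5p read 118 and 128 (6.99-fold), and miR-6935-5p read 206 and 241 (6.83-fold). These 5 were brighter on the BALB/c array even before scaling, with unscaled log2 ratios of -1.43, -0.84, -0.52, -0.39 and -0.36 in that order. The rest of each fold comes from the scaling factor of 5.32. The scaled log2 ratio of miR-6916-5p had a spot-noise range of -4.19 to -3.53, and that of miR-6917-5p -4.02 to -2.57. For miR-6912-5p the range was -3.87 to -1.81, and for miR-6935-5p -2.95 to -2.59. miR-6913-5p read 136 on both arrays (4.72-fold), and miR-7008-5p read 134 and 128 (3.79-fold). Without scaling, the log2 ratio of miR-6913-5p was 0.17 and that of miR-7008-5p 0.49, so that their direction is set by the scaling. miR-6924-5p read 101 and 118 and was at least 11.6-fold higher in BALB/c on the scaled values. This bound includes the factor of 5.32 and leaves spot noise out, and the BALB/c spot lay 3.93 SD above the background. Of the 178 shared miRNAs, 27 were members. The members on the BALB/c side included 5 of the 10 lowest ratios among these 178, and 1 of the 10 highest was a member.

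All 7 measured members on the BALB/c side touch a very bright control spot, if the block, column and row numbers of the scanner output are read as a grid. On the BALB/c array, 65 members touch a spot over 5000, sideways or diagonally. Of these, 17 (26.2%) were detected in BALB/c and 7 had a ratio of at least 2-fold in favour of BALB/c. Of the other 137 members, 11 (8.03%) were detected in BALB/c and 1, miR-6924-5p, was at least 2-fold higher there. In C57BL/6 the members were detected in 58.5% and 48.9% of these groups. Outside the block, 12.7% of 71 miRNAs that touch such a spot and 10.4% of 1426 others were detected in BALB/c. With the 65 members left out, 67 members were detected in C57BL/6, 11 in BALB/c and 10 in both, the median log2 ratio was 1.03, and 10 and 1 members were at least 2-fold towards C57BL/6 and BALB/c.

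The placing can be followed at column 2, row 5 of each of the 32 blocks of the chip, where 1 member sits beside a control spot. All 4 members beside Spike Control 1 (miR-6912-5p, miR-6913-5p, miR-6916-5p and miR-6917-5p) were detected in BALB/c, with intensities from 128 to 224. None of the 4 beside Spike Control 2 (miR-6914-5p, miR-6915-5p, miR-6918-5p and miR-6919-5p) was, with 99.4 to 105, although that control read 11400.3 to 12587. Beside S-Probe28, a bright control of 9503 to 11491, 4 of 8 members were detected, namely miR-7006-5p, miR-7008-5p, miR-7009-5p and miR-7011-5p. Beside dim controls 2 of 16 were detected, miR-6944-5p and miR-6979-5p. A bright neighbour thus went with detection at some controls and not at others, and its part in the BALB/c values was not tested.

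**Figure D5:**
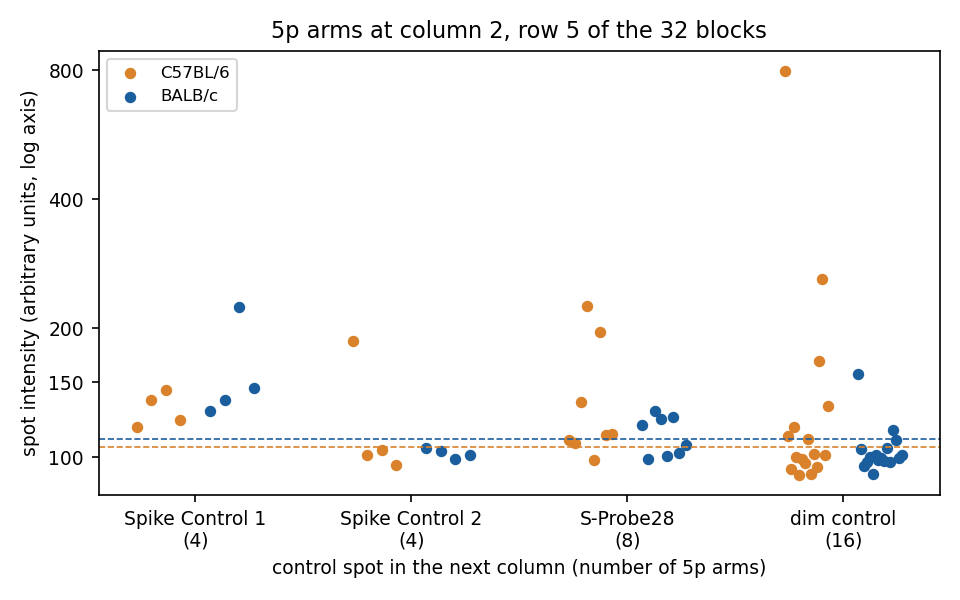
Spot intensity (log axis, arbitrary units) of the 32 members at column 2, row 5 of the blocks, grouped by the control spot in the next column, for the C57BL/6 (orange) and BALB/c (blue) arrays; dashed lines are the detection thresholds in the same colours. All 4 BALB/c values beside Spike Control 1 lie above the threshold and all 4 beside Spike Control 2 below it.

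The members share few seeds, despite their common base composition. The 178 sequences held 157 different seeds, and 60.7% had 4 or more G among the 7 seed bases, against 17.6% of all miRNAs. Of the seeds, 18 belonged to more than 1 member, 15 to a pair and 3 to a triplet, 39 members in all. In C57BL/6 all members of a shared seed were detected for 7 seeds, none for 3 and some for 8. In BALB/c no shared seed had more than 1 member detected, and 4 had 1. Of all 202 members, 52.0% were detected in C57BL/6 and only 13.9% in BALB/c. Whether the seed counts differ from what these shares would give was not tested.

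The triplets and a pair that includes the highest ratio among the shared members are shown, with the seed in capitals.
miR-7075-5p: cGGGGAGGaggacaugguuuu
miR-7030-5p: uGGGGAGGuggcugugcuaguc
miR-7076-5p: aGGGGAGGugguauggucuca
miR-6922-5p: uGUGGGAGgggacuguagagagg
miR-6993-5p: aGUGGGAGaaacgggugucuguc
miR-7008-5p: uGUGGGAGaugccaggagccguac
miR-6911-5p: uGGGCUGAgugggucuguggcau
miR-7079-5p: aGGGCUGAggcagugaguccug
miR-7028-5p: uGGGCUGAggcuugggucaggag
miR-6975-5p: gCUGGGGAgaaagggguuuggca
miR-7005-5p: cCUGGGGAugggaggaccagca

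The seed GGGGAGG was carried by miR-7075-5p, miR-7030-5p and miR-7076-5p, which read 106, 135 and 141 in C57BL/6, all detected, and 101, 104 and 105 in BALB/c, none detected. The seed GUGGGAG was carried by miR-6922-5p, not detected in C57BL/6 at 104, miR-6993-5p, detected at 110.2, and miR-7008-5p, detected at 134. The seed GGGCUGA was carried by miR-6911-5p, not detected at 99.8, and by miR-7079-5p and miR-7028-5p, detected at 111 and 112. The pair with seed CUGGGGA, miR-6975-5p at 110.4 and miR-7005-5p at 440.2, was detected in C57BL/6, and only miR-7005-5p was detected in BALB/c. In the pair with seed GAGGGAG, miR-6965-5p at 106 and miR-7047-5p at 349.8 were detected in C57BL/6 and neither in BALB/c.

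At the ends of the block, miR-6896-5p (100.1 in C57BL/6 and 100.02 in BALB/c), miR-7093-5p and both miR-7094 probes (miR-7094-1-5p and miR-7094b-2-5p) were not detected in either strain. The nearest number below the block with a 5p probe, miR-6769b-5p, read 13864 and 1066 and was detected in both, and the nearest above, miR-7115-5p, was detected in neither. Of the mirtrons named long before this block, miR-877-5p was detected in neither strain (103 on both arrays), and miR-1224-5p read 821 and 174, with a log2 ratio of 0.92.

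Markers of blood and other cells were read beside the members. miR-451a, the erythrocyte miRNA, read 4180 in C57BL/6 and 1603 in BALB/c, and all 4 erythrocyte and plasma markers were detected in both strains with log2 ratios from -1.15 to -0.76. The myeloid miR-223-3p (-1.68), the endothelial miR-126a-3p (-1.02) and the muscle miR-1a-3p (-3.32) and miR-133a-3p (-1.92) were detected in both as well. miR-142a-3p and the liver miR-122-5p were detected only in C57BL/6, at 108 each. In BALB/c they read 104 and 109, under the higher threshold of that array. All 8 markers with a ratio thus lay below 0 on the same scale on which the median of the members lay at 0.45. On that scale the median of all 178 shared miRNAs was -0.44, with 104 of them below 0, and the sign depends on the scaling. The part of the markers in the members' values was not tested.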

How the data were processed

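Each sample was the Cy5-labelled RNA of the pooled plasma EVs of 5 mice on 1 Toray 3D-Gene chip. The deposited scanner output gives the median 635 nm intensity of each of 3200 spots and of its surroundings, not subtracted or normalized. The authors' table gives a background-subtracted, scaled intensity per detected miRNA, made by steps not given in the sources used here. Its detection calls for the members were the same as those computed here.

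The mean of the BLANK spots (896, of which 45 at each end were left out) was subtracted. Scaling matched the 75th percentile of the shared miRNAs between arrays. The number of arrays limits the precision. No test between the strains and no p-value were computed. The members, the lists and the rule for naming miRNAs were chosen with earlier results of these data known. By that rule the text may name the 15 brightest members of each array, all detected in both strains, the 15 brightest detected only in C57BL/6, all detected only in BALB/c, those with a shared seed or a detected 3p arm, those at the ends of the block and the 5 brightest 3p arms. Members placed beside control spots but outside this rule were named after their values were seen. Mature miRNAs and genes were matched to RefSeq tables (GRCm38.p6). The RefSeq table used held no entry for 24 members, among them miR-6917-5p, miR-6935-5p, miR-6979-5p, miR-6980-5p, miR-7006-5p and miR-7042-5p.

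The alternatives were detection at 3 SD, no BLANK spots left out, a spot brighter than its local background, the authors' table, no scaling, scaling on each array's own detected median, on the shared median or on the spike controls, and normexp (offset 50) before quantile normalization. Division of the C57BL/6 signals before detection, local background subtraction and leaving out members beside bright spots were chosen after seeing the data. The ratio was tested on simulated data, scored only for probes over 10 SD above the background on the simulated BALB/c array. On the real BALB/c array 11 members passed that limit, so the simulation does not cover the dimmer ratios. Tools were R 4.3.3 (limma 3.58.1), scipy 1.17.1, pandas 2.3.3, numpy 2.4.6 and Python 3.11.15.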

Additional observations from a re-analysis of the deposited data

How the results depend on the processing

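With 1 array per strain, no result has a replicate check, and the depth of the arrays is set by the BLANK spots: 18 of the members detected in C57BL/6 and 2 of those detected in BALB/c lay within 3 SD of the background. No paired analysis was possible because each strain has 1 sample. For the ratios of single members, 50 of the values under the alternatives stayed within the spot noise, while 183 moved beyond it. A further 7 changed sign from a ratio of at least 2-fold. Of 78 values that counts and medians took under the alternatives, 44 stayed within 1.5 times the count or within the spot noise. Some of the 44 could not move, because a constant scaling factor cancels in the members' median relative to all shared miRNAs. The counts from the authors' detection calls were also the same, as those calls were identical. The count detected only in BALB/c went from 1 to 2 where a spot had to exceed its local background, and the 3p arms detected in BALB/c went from 2 to 0 both at 3 SD and with no BLANK spots left out. Without the members beside bright spots, 67 were detected in C57BL/6, 11 in BALB/c and 10 in both. With the C57BL/6 signals divided by the factor before detection, 43 members were detected in C57BL/6, 21 only there and 6 only in BALB/c, with 2 of the 3p arms. The median log2 ratio of the shared members (0.45) was 0.10 at 3 SD, 2.86 without scaling, 3.12 on each array's own median and in the authors' table, 2.01 on the spike controls and 1.03 without the members beside bright spots, and turned to -0.19 with the local background subtracted. Members at least 2-fold towards C57BL/6 (19) numbered 6 at 3 SD, 9 with no BLANK spots left out, 65 without scaling, 71 on each array's own median and in the authors' table, 48 on the spike controls, 7 with normexp, 10 without the members beside bright spots and 10 with the local background subtracted. Those towards BALB/c (8) numbered 2 without scaling, 1 on each array's own median, in the authors' table and without the members beside bright spots, and 3 with normexp. The shares of all miRNAs under these alternatives are not given here. Relative to all shared miRNAs, the members' median (0.885) was 0.37 with normexp, 1.47 without the members beside bright spots and 0.45 with the local background subtracted. Among the ratios of at least 2-fold, those of miR-6913-5p and miR-7008-5p changed sign without scaling (0.17 and 0.49). They also did so on each array's own median and in the authors' table (0.44 and 0.75). The ratio of miR-6968-5p changed sign with the local background subtracted (-0.20). Ratios under 2-fold changed sign as well. Of the 27 log2 ratios, 12 lay below 0, against 5 without scaling, and 14 of 26 did with the local background subtracted. The change under a scaling is the change of its factor, and the cause of the others was not tested.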
